A study of Homo sapiens with 24 samples.

Results

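The EGF family of ligands and the ERBB receptors were followed in PPC1, a human prostate cancer cell line, and in the polyploid giant cancer cells (PGCC) raised from it by radiation. The genes were the 10 rows of the deposited count table, of 48162 in all, that carry these symbols: the ligands *AREG*, *EREG*, *HBEGF*, *TGFA*, *BTC* and *NRG1*, the receptors *EGFR*, *ERBB2* and *ERBB3*, and *ERRFI1*, an inhibitor of the receptors. The study had 4 conditions with 6 libraries each. Parental libraries came from PPC1 cells that were neither irradiated nor filtered. PGCC libraries came from PPC1 plates that received 8 Gy on day 2, and a 20 micron strainer kept the large cells. Each population was also taken after 5 h with 5 μM LCL521, a pro-drug that inhibits the acid ceramidase ASAH1. The series record places drug and harvest on day 5, while the study's methods place them on day 3. All 24 libraries are of 1 cell line in bulk culture. Only irradiated plates were filtered, so radiation and selection by size cannot be told apart, and in bulk RNA fewer cells of a type and less RNA per cell cannot be told apart.

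The ligands of this family are made as membrane proteins and are released by proteases of the ADAM family. They bind EGFR and its relatives on the cell surface, which pair, phosphorylate each other and drive the RAS, ERK and PI3 kinase cascades. Several of the genes that these cascades switch on, *HBEGF*, *EREG*, *AREG* and *ERRFI1* among them, belong to the same circuit, some as further ligands and some as brakes. In prostate epithelium and its tumours the ligands are known as growth factors that cells supply to themselves and to their neighbours.

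Total counts lay between 14835246 and 19906601 per library, and 3 counts in a library, the floor used here, were worth 0.15 to 0.208 CPM, that is, counts scaled by library total and TMM factor to a common depth; the floor covers counting error only. Replicates 4 and 5 stood apart in all 4 conditions: the second principal component of log2 CPM, with 16.5% of the variance, put these 8 libraries at 13.3 or above and the other 16 at -4.11 or below. Fold changes of the ligands tested, *EGFR*, *ERBB2* and *ERRFI1* without drug are therefore given with and without them. Replicates 4 and 5 were singled out from these same libraries, so p-values and intervals without them are descriptions only. Most values of other genes are given with all libraries only. The prostate luminal genes *KLK2*, *KLK3* and *TMPRSS2* had at most 2 counts in every library, while the summed CPM of 5 epithelial markers was 782 to 1480. Among markers of other cells, the leukocyte genes *CD3E* and *CD68* had at most 2 counts in every library, and the summed CPM of 4 leukocyte markers was 0.406 to 2.74 in parental cells and 2.93 to 4.14 in PGCC, most of it *PTPRC*, whose log2 fold change was 1.39 (adjusted p = 0.016). The basal keratin gene *KRT14* had at most 2 counts in each parental library and 54 to 152 in each PGCC library, and 3 basal markers summed to 0.761 to 15.8 CPM in parental cells and 6.96 to 12.7 CPM in PGCC. The part of these markers in the differences below was not tested.

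The promoters of *EREG*, *HBEGF*, *AREG* and *ERRFI1* are shown because these genes had the largest fold changes of the 9 tested when replicates 4 and 5 were left out; with all libraries *EREG* and *HBEGF* passed the test and *AREG* and *ERRFI1* did not. Each run is the 250 bases before the start site from RefSeq (GRCh38.p14), 5′ to 3′ on the strand of the gene. Capitals mark matches to short motifs on either strand.
EREG, chr4:74364895-74365144, plus strand: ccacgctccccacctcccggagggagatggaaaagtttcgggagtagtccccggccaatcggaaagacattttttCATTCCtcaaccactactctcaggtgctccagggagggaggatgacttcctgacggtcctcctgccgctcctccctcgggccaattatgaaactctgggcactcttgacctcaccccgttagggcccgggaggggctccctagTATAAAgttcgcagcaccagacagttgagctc
AREG, chr4:74444886-74445135, plus strand: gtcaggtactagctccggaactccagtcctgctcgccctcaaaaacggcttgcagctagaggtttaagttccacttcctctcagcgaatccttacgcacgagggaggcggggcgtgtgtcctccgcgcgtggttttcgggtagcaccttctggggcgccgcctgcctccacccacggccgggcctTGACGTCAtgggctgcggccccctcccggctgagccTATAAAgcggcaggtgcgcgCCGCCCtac
HBEGF, chr5:140346604-140346853, minus strand: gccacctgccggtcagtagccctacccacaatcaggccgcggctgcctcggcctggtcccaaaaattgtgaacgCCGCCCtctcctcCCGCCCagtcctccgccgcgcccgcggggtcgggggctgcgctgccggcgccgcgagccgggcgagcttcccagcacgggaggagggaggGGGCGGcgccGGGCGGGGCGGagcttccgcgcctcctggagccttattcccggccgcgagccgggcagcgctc
ERRFI1, chr1:8026310-8026559, minus strand: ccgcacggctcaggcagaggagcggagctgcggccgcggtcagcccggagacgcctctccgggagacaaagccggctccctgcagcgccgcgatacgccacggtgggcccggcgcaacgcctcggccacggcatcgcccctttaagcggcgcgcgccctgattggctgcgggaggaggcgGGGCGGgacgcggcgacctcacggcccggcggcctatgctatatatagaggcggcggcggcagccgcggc
Motifs were searched in windows of 300 bases, 250 before and 50 after each start. For the TATA box only the letters TATAAA were searched. They were found in *EREG* at -32 and in *AREG* at -29 from the start, and in 11.5% of 35116 RefSeq promoters. Other forms of the TATA box were not searched for, in *ERRFI1* or elsewhere. The cAMP response element TGACGTCA was found in *AREG* at -65 and in 1.85% of all promoters, and the letters of the TEAD element GGAATG, as their reverse complement, in *EREG* at -175 and in 14.0%. The GC box GGGCGG, which SP1 binds, had 5 matches in *HBEGF*, of which the last 2, at -63 and -58, share 1 base, and a single match in *ERRFI1* at -70. *AREG* had a further match, as the reverse complement, at -9. The GC box was present in 45% of all promoters. The AP-1 element TGACTCA (4.95% of promoters) and a 10-letter NF-kappaB element (1.61%) were in none of these 4 windows. These matches are descriptions of letters in a window, and their absence says nothing of the factors. Of the 10 genes, 8 were matched in the promoter table used here, counting *EGFR* and *TGFA* once although each had 2 start sites.

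*EREG* encodes epiregulin, a low-affinity ligand of EGFR and ERBB4 (ENSG00000124882, chromosome 4 from 75230860 to 75254468, plus strand, hg19). Parental libraries ran from 0.277 to 1.98 CPM with a median of 0.945, and PGCC libraries from 5.10 to 7.03 CPM with a median of 5.52. All 6 PGCC libraries lay above all 6 parental libraries. The rise was 5.22-fold (95% interval 3.08 to 8.83), or 2.38 on the log2 scale with a standard error (SE) of 0.35 and an adjusted p of 9.2e-05. All adjusted p-values here are Benjamini-Hochberg values of the quasi-likelihood test in edgeR unless another tool is named. It was present in 6 of 6 same-numbered pairs. Parental replicates 4 and 5, at 1.97 and 1.98 CPM, were above the other parental libraries, and without replicates 4 and 5 the log2 fold change was 3.19 (adjusted p = 1.6e-06, edgeR). Parental libraries held 4 to 34 counts of *EREG*.

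*HBEGF* encodes heparin-binding EGF-like growth factor, a ligand of EGFR and ERBB4 (ENSG00000113070, chromosome 5 from 139712428 to 139726216, minus strand, hg19). It had 9.80 to 27.0 CPM in parental libraries with a median of 14.3, and 36.3 to 78.2 CPM in PGCC libraries with a median of 65.1. The 2 populations did not overlap. The rise was 3.63-fold (95% interval 2.44 to 5.40; log2 fold change 1.86, SE 0.27, adjusted p = 6.7e-05, edgeR) and was seen in 6 of 6 pairs. Its size differed between sets of replicates: same-numbered libraries differed on average by 2.49 log2 CPM for replicates 1, 2, 3 and 6 but by 0.64 for replicates 4 and 5, where parental levels were higher and PGCC levels lower than in the others. Without replicates 4 and 5 the log2 fold change was 2.51 (adjusted p = 1.6e-08, edgeR).

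*AREG* encodes amphiregulin, a ligand of EGFR (ENSG00000109321, chromosome 4 from 75310851 to 75320726, plus strand, hg19). PGCC libraries held 3.08 to 6.48 CPM with a median of 4.91. Parental libraries fell into 2 ranges, with replicates 1, 2, 3 and 6 between 0.545 and 1.32 CPM and replicates 4 and 5 at 4.64 and 5.19 CPM. The latter 2 overlapped with PGCC. The log2 fold change of 1.12 (SE 0.49) did not pass the test with all libraries (adjusted p = 0.072, edgeR). It was 1.45 with an adjusted p of 0.039 with the replicate number as a block, and 2.59 (6.04-fold, 95% interval 4.07 to 8.96, adjusted p = 3.6e-06, edgeR) without replicates 4 and 5. Leaving out replicate 4 alone (adjusted p = 0.035, log2 fold change 1.46, edgeR) or replicate 5 alone (adjusted p = 0.012, log2 fold change 1.68, edgeR) also brought the value past the threshold, as did DESeq2 with all libraries (adjusted p = 0.038). A near-identical copy, *AREGB*, lies on the same chromosome from 75480629 to 75490486 and had 0 to 2 counts per library. Counting may have split or dropped reads shared by the copies, so the level of *AREG* is uncertain; adding the counts of *AREGB* changed no call.

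*TGFA* encodes transforming growth factor alpha, a ligand of EGFR (ENSG00000163235, chromosome 2 from 70674412 to 70781325, minus strand, hg19). Parental libraries had 66.6 to 100.0 CPM with a median of 80.1, and PGCC libraries 34.6 to 80.9 CPM with a median of 71.6. The ranges overlapped, and PGCC replicates 4 and 5, at 34.6 and 48.5 CPM, were below the other 4. The value was -0.38 on the log2 scale (SE 0.19, adjusted p = 0.11, edgeR), and with the replicate block it was -0.43 with an adjusted p of 0.016. It was lower in 6 of 6 same-numbered pairs. Without replicates 4 and 5 the log2 fold change was -0.22 (adjusted p = 0.095, and 0.023 with the block, edgeR).

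*BTC* encodes betacellulin, a ligand of EGFR and ERBB4 (ENSG00000174808, chromosome 4 from 75669969 to 75719896, minus strand, hg19). It had 3.05 to 5.69 CPM in parental libraries with a median of 3.96, and 5.01 to 6.56 CPM in PGCC with a median of 6.11. Only parental replicate 4 reached into the range of PGCC. The rise was 1.44-fold (95% interval 1.13 to 1.84; log2 fold change 0.52, SE 0.17, adjusted p = 0.018, edgeR). The call ended without replicate 1 (log2 fold change 0.43, adjusted p = 0.072, edgeR), without replicate 3 (0.46, adjusted p = 0.077) and with no filter on low counts (0.50, adjusted p = 0.0504). At 0.67 (adjusted p = 0.0057, edgeR) the log2 fold change passed without replicates 4 and 5. The direction was the same in 6 of 6 pairs. *NRG1*, which encodes neuregulin 1, a ligand of ERBB3 and ERBB4 (ENSG00000157168), had 0 counts in all 12 parental libraries, with or without LCL521, and 0 to 2 counts in the 12 PGCC libraries. All are under the floor, so no fold is given, and the filter on low counts left the gene untested. With no filter it was fitted and did not pass in PGCC against parental cells (adjusted p = 0.15, edgeR).

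*EGFR* encodes the receptor of most of these ligands (ENSG00000146648, chromosome 7 from 55086714 to 55324313, plus strand, hg19). Parental libraries had 28.8 to 59.2 CPM with a median of 40.2, and PGCC libraries 41.2 to 65.7 CPM with a median of 52.0. The ranges overlapped, and PGCC was higher in 5 of 6 pairs. The log2 fold change was 0.29 (95% interval -0.05 to 0.63, adjusted p = 0.15, edgeR). With the replicate block it was 0.30 with an SE of 0.09 and an adjusted p of 0.016. Leaving out replicates 4 and 5 gave 0.28 (adjusted p = 0.086, edgeR).

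*ERBB2* encodes the family's receptor with no known ligand of its own, which pairs with the others (ENSG00000141736, chromosome 17 from 37844167 to 37886679, plus strand, hg19). It moved the other way. Parental libraries had 30.1 to 36.3 CPM with a median of 31.8 and PGCC libraries 22.4 to 29.2 CPM with a median of 25.5, without overlap. The level in PGCC was 0.798 of that in parental cells (95% interval 0.699 to 0.909; log2 fold change -0.33, SE 0.09, adjusted p = 0.0075, edgeR), and it was lower in 6 of 6 pairs. The size was close in both sets of replicates, at -0.38 log2 CPM on average for replicates 1, 2, 3 and 6 and -0.26 for replicates 4 and 5. With libraries scaled by their totals alone the log2 fold change was -0.23 and the call ended (adjusted p = 0.055, edgeR).

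*ERBB3* encodes a receptor of neuregulins with little kinase activity of its own (ENSG00000065361, chromosome 12 from 56473641 to 56497289, plus strand, hg19). It was near the floor of what the libraries can show, with 7 to 20 counts in parental libraries and 8 to 30 in PGCC. The log2 fold change was -0.01 with a 95% interval of -0.69 to 0.68 (adjusted p = 0.99, edgeR), or 0.618-fold to 1.60-fold. Its sign turned under other settings.

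*ERRFI1* encodes MIG6, an intracellular inhibitor that binds the kinase domain of EGFR and its relatives (ENSG00000116285, chromosome 1 from 8064464 to 8086368, minus strand, hg19). PGCC libraries had 320 to 605 CPM with a median of 570. Parental replicates 1, 2, 3 and 6 had 97.1 to 138 CPM, whereas parental replicates 4 and 5 had 701 and 595 CPM. These 2 libraries lay within or above the range of PGCC, and all other parental libraries lay below it. The log2 fold change was 0.84 (95% interval -0.20 to 1.87, adjusted p = 0.17, edgeR) with all libraries, 1.39 (adjusted p = 0.039, edgeR) with the replicate block, and 2.29 (4.88-fold, 95% interval 4.13 to 5.78, adjusted p = 1.2e-08, edgeR) without replicates 4 and 5. Without replicate 4 alone it was 1.28 (adjusted p = 0.040, edgeR) and without replicate 5 alone also 1.28 (adjusted p = 0.048, edgeR). In same-numbered pairs *ERRFI1* was higher in PGCC in 4 of 6, on average by 2.27 log2 CPM for replicates 1, 2, 3 and 6 and by -0.60 for replicates 4 and 5. *AREG* had the same division, at 2.48 and -0.31. The difference between the 2 sets of replicates was not tested. In parental cells replicates 4 and 5 were both above the other 4 for 5 of the 9 genes (*AREG*, *EREG*, *HBEGF*, *BTC* and *ERRFI1*), as for 25.2% of 14555 genes, and both below for 1, *EGFR* (25.5% of genes). In PGCC they were both below for 3 (*HBEGF*, *TGFA* and *EGFR*; 18.7% of genes) and both above for 1, *ERBB3* (21.6% of genes).

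**Figure D1:**
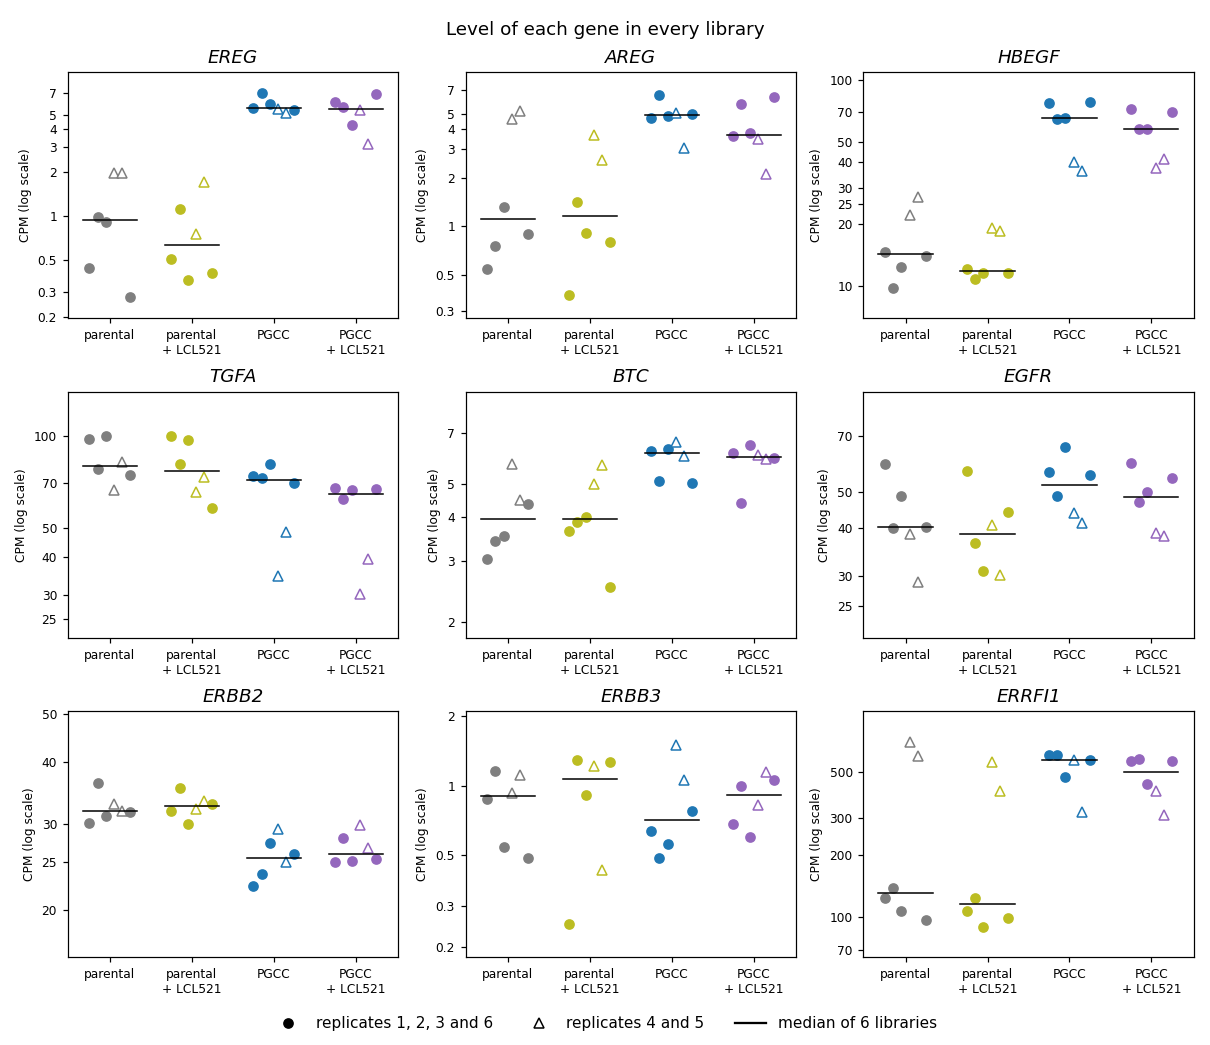
Level of 9 genes in each of the 24 libraries, in CPM on a log scale, by condition; circles are replicates 1, 2, 3 and 6, open triangles are replicates 4 and 5, and lines are medians of 6 libraries. *EREG* and *HBEGF* in PGCC lie above all parental libraries and *ERBB2* below them, while the triangles of *AREG* and *ERRFI1* in parental cells lie near the PGCC values.

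Together, 4 of the 9 genes tested passed the threshold between PGCC and parental cells, 3 higher and 1 lower, where 47.4% of all 13812 genes tested did so (23.1% higher and 24.3% lower). That share is near the background and is no result about the family. With the replicate block 8 of 9 passed, against 56.2% of all genes, and without replicates 4 and 5 it was 6 of 9 against 54.6%. The 3 genes whose 6 libraries did not overlap, *EREG*, *HBEGF* and *ERBB2*, compare with 26.8% of all genes tested. For each of them the two-sided exact permutation test over 924 divisions of the libraries gave 0.00216, the smallest p it can give. The exact sign-change test of same-numbered pairs gave 0.0312 for these 3 genes, *BTC* and *TGFA*, the smallest p it can give. It gave 0.0625 for *EGFR*, 0.0938 for *AREG*, 0.125 for *ERRFI1* and 0.938 for *ERBB3*. In all, 36 tests of each kind were computed, and these p-values are unadjusted. The median log2 fold change of the 5 ligands tested was 1.12, that of the 3 receptors -0.01 (0.09 with library totals) and that of all genes tested -0.03 (0.07 with library totals). Over all genes 3186 were called higher and 3355 lower, and scaling by library totals alone made this 3820 and 2521.

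In the libraries with LCL521 the comparison of PGCC with parental cells can be made again in 12 libraries that the first comparison does not use, although the same 6 experiments underlie both. *EREG* had 0.364 to 1.72 CPM in parental cells with LCL521 (median 0.630) and 3.12 to 6.97 CPM in PGCC with LCL521 (median 5.50), and *HBEGF* had 10.8 to 19.1 (median 11.9) and 37.6 to 72.5 (median 57.6). Neither gene overlapped between populations. The log2 fold changes were 2.71 for *EREG* (SE 0.34, adjusted p = 1.8e-05, edgeR) and 2.03 for *HBEGF* (SE 0.20, adjusted p = 2e-06, edgeR). Without replicates 4 and 5 they were 3.27 (adjusted p = 2.9e-06, edgeR) and 2.51 (adjusted p = 2.3e-09, edgeR). Same-numbered libraries differed on average by 3.12 log2 CPM for *EREG* among replicates 1, 2, 3 and 6 and by 1.74 among replicates 4 and 5, and for *HBEGF* by 2.46 and 1.07. *ERBB2* again did not overlap, with 29.99 to 35.4 CPM in parental cells with LCL521 and 25.1 to 29.7 in PGCC with LCL521, and it fell by 0.26 on the log2 scale (SE 0.08, adjusted p = 0.013, edgeR; 0.055 with library totals). These 3 of 9 genes compare with 28.1% of all genes without overlap.

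*AREG* passed the threshold here, at a log2 fold change of 1.38 (SE 0.44, adjusted p = 0.017, edgeR), but the call ended without replicate 2 (adjusted p = 0.071, edgeR), replicate 3 (adjusted p = 0.056, edgeR) or replicate 6 (adjusted p = 0.073, edgeR). Without replicates 4 and 5 the value was 2.49 (adjusted p = 4.9e-05, edgeR), and the mean same-numbered difference of *AREG* was 2.40 log2 CPM among replicates 1, 2, 3 and 6 and -0.17 among replicates 4 and 5. Its levels were 0.378 to 3.66 CPM (median 1.16) in parental cells with LCL521 and 2.10 to 6.38 CPM (median 3.69) in PGCC with LCL521, which overlap. *BTC* rose by 0.52 on the log2 scale (adjusted p = 0.029, edgeR), a call that ended without replicate 1 (0.094), replicate 3 (0.094) or replicate 6 (0.083), or with no filter on low counts (0.074, all adjusted p-values from edgeR). *ERRFI1* stood at 1.07 on the log2 scale (adjusted p = 0.055, edgeR), 1.51 with the block (adjusted p = 0.021) and 2.39 without replicates 4 and 5 (adjusted p = 4.6e-09). As in the libraries without drug, its mean same-numbered difference came to 2.35 for replicates 1, 2, 3 and 6 and to -0.42 for replicates 4 and 5. *TGFA* stood at -0.48 on the log2 scale (adjusted p = 0.056; -0.52 and 0.014 with the block, edgeR) and *EGFR* of 0.30 (adjusted p = 0.13; 0.31 and 0.024 with the block, edgeR). In all, 5 of 9 genes passed against 48.9% of all genes tested, 8 of 9 with the block against 56.3%, and 6 of 9 without replicates 4 and 5 against 52.5%. Over all genes 3454 were higher and 3304 lower, or 3819 and 2825 with library totals.

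**Figure D2:**
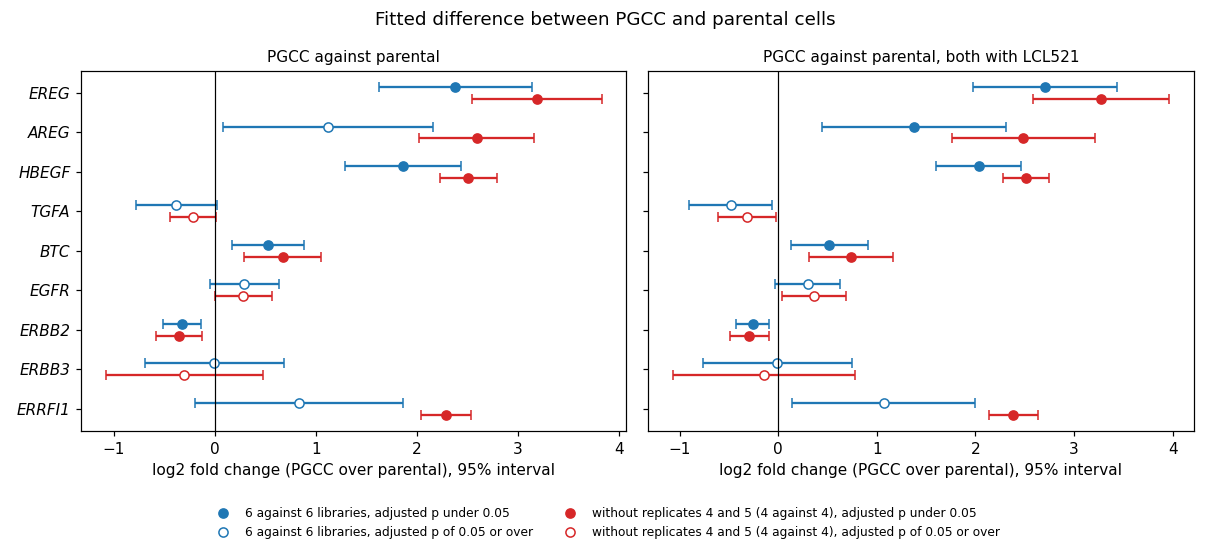
Log2 fold change of PGCC over parental cells with 95% intervals, without LCL521 (left) and with LCL521 in both populations (right); blue is the fit of 6 against 6 libraries, red the fit without replicates 4 and 5, and filled points passed an adjusted p of 0.05 in edgeR's quasi-likelihood test. Leaving out replicates 4 and 5 moved *ERRFI1* from 0.84 to 2.29 and *AREG* from 1.12 to 2.59 on the left, and changed *ERBB2* little (-0.33 and -0.36).

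The make-up of the ligand transcripts also differed between the populations. Levels of different genes are compared here in CPM per kilobase of the gene length that the file lists. Among these 6 ligands *TGFA* was the most abundant in parental cells, at 15.5 to 23.3 CPM per kilobase (mean 19.3 ± 3.09 SD, n = 6), followed by *HBEGF* at 4.11 to 11.3 (mean 6.99 ± 2.74 SD, n = 6). In PGCC the order was turned, with *HBEGF* at 15.2 to 32.8 (mean 25.3 ± 7.61 SD, n = 6) and *TGFA* at 8.02 to 18.8 (mean 14.7 ± 4.16 SD, n = 6). Within each library the ratio of *HBEGF* to *TGFA* was 0.225 to 0.603 in the 6 parental libraries and 1.35 to 2.09 in the 6 PGCC libraries, so it exceeded 1 in 0 of 6 and 6 of 6. With LCL521 it was 0.217 to 0.524 and 1.57 to 2.24. This ratio does not depend on library scaling. Whether it exceeds 1 does depend on the listed gene lengths, 2386 bases for *HBEGF* and 4310 for *TGFA*. In raw counts *TGFA* was above *HBEGF* in PGCC replicates 2, 3 and 5 and below it in replicates 1, 4 and 6. The ratio was chosen after the levels were seen and is given without a test. As shares of the summed level of the 6 ligands listed at the outset, which leaves out *EGF*, *EPGN* and the other neuregulins, *TGFA* went from a median of 71.2% in parental cells to 31.2% in PGCC, and *HBEGF* from 21.5% to 51.7%. *AREG* made up a median of 3.14% and 7.51%, *BTC* 4.69% and 4.02%, and *EREG* 0.757% and 2.64%. The summed ligand level was 24.2 to 36.6 CPM per kilobase in parental libraries and 32.2 to 56.8 in PGCC libraries, where replicates 4 and 5 were the lowest.

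**Figure D3:**
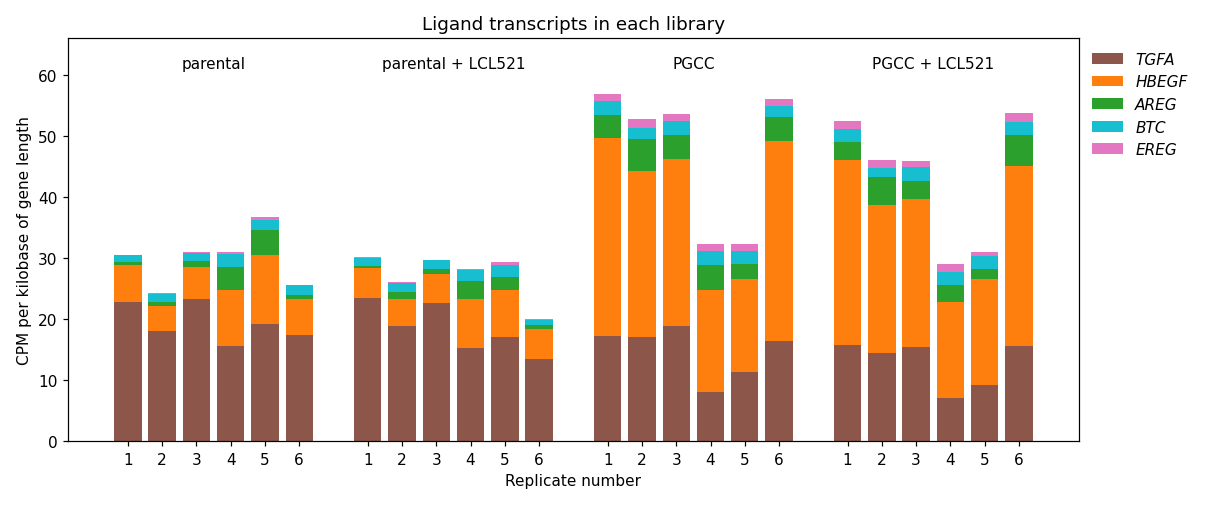
Ligand transcripts in each library as stacked CPM per kilobase of gene length, by condition and replicate number; *NRG1* is too low to draw. *TGFA* is the largest part of every parental bar (median share 71.2% without LCL521) and *HBEGF* of every PGCC bar (median share 51.7% without LCL521).

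Across all 10 genes, *ERRFI1* had the highest level per kilobase in every condition, from 31.3 to 226 in parental cells and from 103 to 195 in PGCC. In parental cells *TGFA* came next, then *HBEGF* and *ERBB2*, whose ranges overlapped, then *EGFR*, *AREG* and *BTC*, each overlapping with the next, and then *EREG* and *ERBB3*, which also overlapped, and *NRG1*. The order of *AREG* and *BTC* by their means turned when libraries were ranked separately, since *AREG* was above *BTC* in 2 of 6 parental libraries. In PGCC the ranges of *HBEGF* and *TGFA* overlapped, although *HBEGF* was above *TGFA* in 6 of 6 libraries, and those of *EGFR*, *ERBB2* and *AREG* also overlapped, each with the next. *EGFR* over *ERBB2* per kilobase was 0.454 to 0.987 in parental libraries and 0.753 to 1.26 in PGCC. *EREG*, at a mean of 1.24 ± 0.148 (SD, n = 6), remained below *BTC* at 2.08 ± 0.232 (SD, n = 6) in PGCC.

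The ligand genes *EREG*, *AREG* and *BTC* lie in a row on chromosome 4, with *EPGN*, the gene of epigen, another ligand of the family, at the end of the cluster (75174190 to 75181024, hg19). From *EPGN* to *BTC* the span is 545707 bases, and 8 genes are listed in it, of which 4 were tested. *EPGN* rose with a log2 fold change of 1.65 (adjusted p = 3.2e-04, edgeR), beside 2.38 for *EREG*, 1.12 for *AREG*, which did not pass, and 0.52 for *BTC*. The other 4, *AREGB* and 3 antisense genes, had at most 13 counts in any library. The strand setting of the counting is not stated, so reads of a gene and of an antisense partner cannot be told apart.

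The other members of the family were also examined. *EGF*, the ligand that names the family, rose from 0.405 ± 0.158 to 4.16 ± 0.548 CPM (SD, n = 6 each; 4 to 12 counts per library in parental cells), or 3.34 on the log2 scale (SE 0.23, adjusted p = 1.3e-07, edgeR). *ERBB4*, the fourth receptor, rose from 0.381 ± 0.0894 to 0.889 ± 0.279 CPM (SD, n = 6 each), a log2 fold change of 1.21 (adjusted p = 0.0027, edgeR) on 3 to 24 counts per library. In this comparison the filter on low counts kept *EGF* and *ERBB4* through their PGCC libraries, since parental levels alone were too low. *EREG* and *AREG* were also kept through their PGCC libraries, with and without LCL521, as not all 6 parental libraries reached the minimum. That these genes were tested is no support for their rises. With LCL521 in both populations the value for *ERBB4* was 0.60 and did not pass (adjusted p = 0.19, edgeR). *NRG2*, at 19.4 CPM in parental cells and 25.4 CPM in PGCC, stood at 0.40 on the log2 scale (adjusted p = 0.059, edgeR) and *NRG4* of 0.28 (adjusted p = 0.63, edgeR), and *NRG3* had at most 1 count in the libraries of parental cells and PGCC without drug. Of these 6 genes 5 were tested and 3 rose, where 23.1% of all genes tested were called higher.

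Among 7 genes of ligand shedding, 6 were tested and 1 rose in PGCC (23.1% of all genes tested were called higher). This was *ADAM12*, a membrane protease, from 3.83 ± 1.4 to 47.7 ± 8.42 CPM (SD, n = 6 each; log2 fold change 3.64, SE 0.21, adjusted p = 3.7e-08, edgeR). *ADAM17*, the main sheddase of *TGFA* and *AREG* products, stood at -0.32 on the log2 scale (adjusted p = 0.20, edgeR). Among 12 genes that take receptors off the surface or quench them, 11 were tested, 4 rose and 2 fell (23.1% and 24.3% of all genes tested). The largest rises were of the ubiquitin ligases *CBLB* (log2 fold change 1.26, adjusted p = 6.7e-04, edgeR) and *CBL* (0.45, adjusted p = 0.0014), and the falls were of *LRIG3* (-0.95, adjusted p = 2.1e-04), a membrane regulator of these receptors, and the deubiquitinase *USP8* (-0.25, adjusted p = 0.049; 0.28 without replicates 4 and 5).

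Of 22 genes of proximal signalling 3 rose and 6 fell. The adaptor *GAB1* (log2 fold change 0.88, adjusted p = 8.3e-05, edgeR) and the kinase gene *MAP2K1* (0.84, adjusted p = 7.0e-04, edgeR) rose most, and *HRAS* (-0.69, adjusted p = 0.0011, edgeR) fell most. Of 16 transcripts known to respond to ERK, 15 were tested, 6 rose and 0 fell. The phosphatase gene *DUSP5*, which acts on ERK, rose from 83.3 ± 40.1 to 299 ± 60.4 CPM (SD, n = 6 each; log2 fold change 1.85, adjusted p = 6.9e-05, edgeR) and *FOS* from 2.36 ± 1.86 to 6.60 ± 1.97 CPM (SD, n = 6 each; log2 fold change 1.48, adjusted p = 0.0064, edgeR). With the replicate block, where 56.2% of all genes passed, the ERK list had 7 rises and 3 falls. The median log2 fold changes were 0.21 for shedding, -0.14 for receptor down-regulation, -0.09 for proximal signalling and 0.19 for ERK targets, beside -0.03 for all genes tested. With library totals the median of proximal signalling was 0.00244 and all genes shifted to 0.07. The counts in each list without the block are read against the share of all genes tested. That share was 23.1% called higher, 24.3% called lower and 47.4% in either direction.

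**Figure D4:**
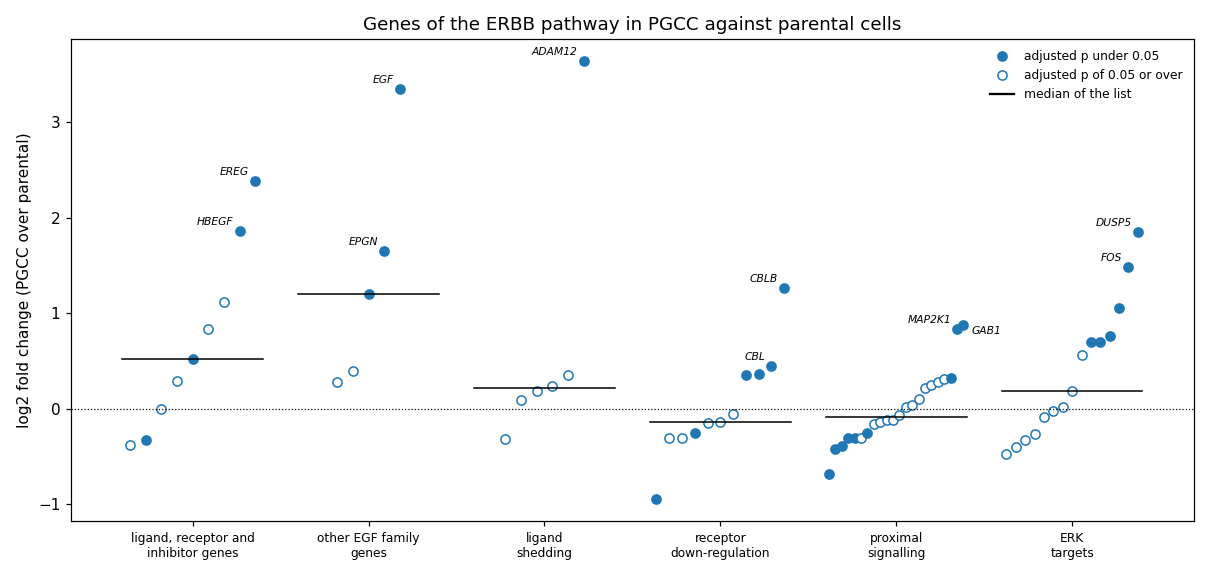
Log2 fold change of PGCC over parental cells for each tested gene of the ligand, receptor and inhibitor genes and of 5 further lists of the pathway; filled points passed an adjusted p of 0.05 in edgeR's quasi-likelihood test, lines are list medians, and up to 2 largest rises per list are named. *ADAM12* (3.64) and *EGF* (3.34) are the highest points.

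The 24 libraries were also searched for genes whose log2 CPM, after subtraction of each gene's mean, was nearest to that of *EREG* and of *ERBB2*, the ligand and the receptor with the largest called change among the 10 genes. Over the 10651 genes whose mean log2 CPM was 2 or more, the nearest to *EREG* were *MMP13*, *BUB1* and *DHRS9*, with root mean square differences of 0.403, 0.404 and 0.428, where *EREG* itself varied by 1.44 around its mean. The nearest to *ERBB2* were *DCAF12*, *ALG12* and *SCAP*, at 0.0957, 0.099 and 0.101, where *ERBB2* varied by 0.184. The libraries share conditions, replicate numbers and depth, and the likeness is a description.

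LCL521 for 5 h moved none of the 9 genes past the threshold in parental cells when libraries were compared without pairing. There 0 of 13277 genes passed edgeR's test (71 had an unadjusted p under 0.05) and 0 passed DESeq2 (83). The log2 fold changes of the ligands were -0.45 for *AREG* (95% interval -1.83 to 0.93), -0.43 for *EREG* (-1.52 to 0.65), -0.25 for *HBEGF* (-0.79 to 0.28), -0.07 for *TGFA* (-0.37 to 0.24) and 0.01 for *BTC* (-0.44 to 0.47). The intervals of *AREG* and *EREG* are wide. For *AREG*, *HBEGF*, *BTC* and *ERRFI1*, replicates 4 and 5 lay above the other 4 in both groups. The receptors lay between -0.09 and 0.09, and *ERRFI1* at -0.35 (-1.73 to 1.03), also a wide interval. With the replicate block, where 115 genes or 0.866% passed, none of the 9 did, and the smallest adjusted p was that of *ERRFI1* at 0.060 (log2 fold change -0.25, SE 0.06). *ERRFI1* was lower with LCL521 in 5 of 6 pairs of parental libraries. *FOSL1*, an AP-1 gene of the ERK list, was the only gene of the further lists to pass with LCL521, in parental cells with the block (log2 fold change -0.24, SE 0.05, adjusted p = 0.020, edgeR).

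In PGCC the same exposure moved 1 of 14151 genes (0.00707%) past the threshold without pairing, with 218 at an unadjusted p under 0.05, and that gene was none of the 9. *TGFA* ran from 34.6 to 80.9 CPM in PGCC and from 30.3 to 67.5 CPM in PGCC with LCL521 (median 64.3). These ranges overlapped widely, but each library with LCL521 was below its same-numbered partner, by 0.06 to 0.30 on the log2 scale, in 6 of 6 pairs. Without pairing the log2 fold change of *TGFA* was -0.19 (95% interval -0.67 to 0.29, adjusted p = 1.00, edgeR), and with the replicate block it was -0.20 (0.873-fold, 95% interval 0.822 to 0.927, adjusted p = 0.013, edgeR). This was 1 of 9 genes, where 234 genes (1.65%) passed with the block; without replicates 4 and 5 and with the block the log2 fold change of *TGFA* was -0.18 (0.883-fold, 95% interval 0.823 to 0.947, adjusted p = 0.093, edgeR), and 0.910% of genes passed. *ERRFI1* was also lower in 6 of 6 pairs, with a log2 fold change of -0.13 and an adjusted p of 0.14 with the block. The 95% interval of its fold with the block was 0.858 to 0.970. The other genes lay between -0.21 (*AREG*) and 0.06 (*ERBB2* and *ERBB3*) without pairing.

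Whether LCL521 acted differently in the 2 populations was tested as an interaction over all 24 libraries. None of 14555 genes passed (60 had an unadjusted p under 0.05; DESeq2 had 0 and 54), with or without the block. The values of the 9 genes, taken as PGCC minus parental, lay between -0.12 (*TGFA*, 95% interval -0.71 to 0.47) and 0.30 (*EREG*, -0.73 to 1.34). The narrowest interval was that of *ERBB2*, at 0.05 (-0.17 to 0.26).

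**Figure D5:**
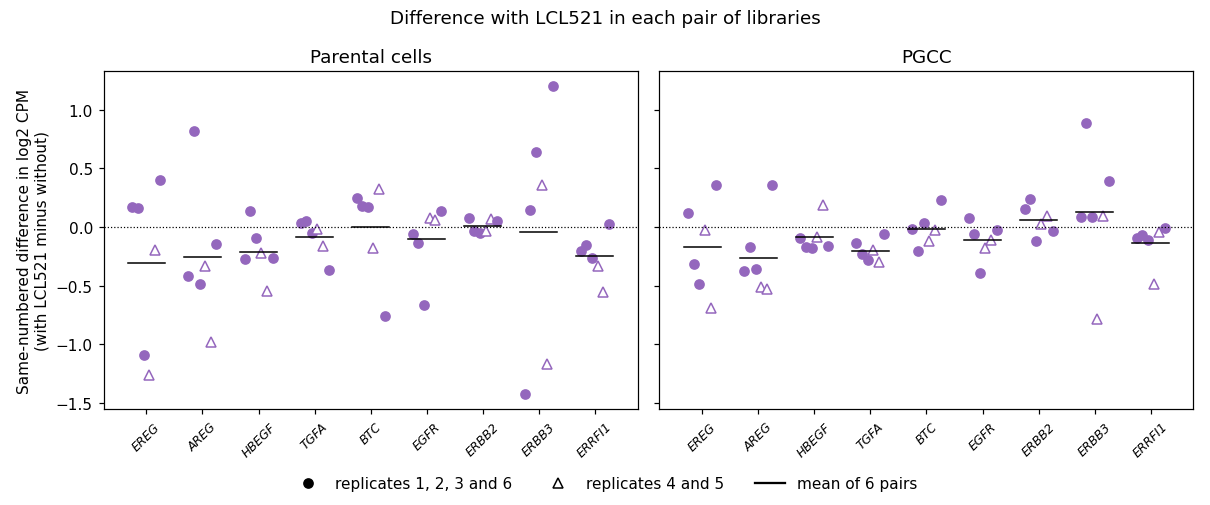
Difference in log2 CPM between the library with LCL521 and the library without it of the same replicate number, for 9 genes in parental cells (left) and PGCC (right); circles are replicates 1, 2, 3 and 6, open triangles replicates 4 and 5, and lines are means of 6 pairs. In PGCC all 6 points of *TGFA* and of *ERRFI1* lie below 0.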

How the data were processed

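RNA-seq libraries of PPC1 cells in 4 conditions with 6 replicates each were analysed. The authors deposited raw read counts per gene for 48162 genes, as whole numbers; per the paper's methods paired-end reads were aligned with STAR and counted with HTSeq, and the submitters' processing notes name hg19. The strand setting is not given in the sources used here. Total counts ranged from 14835246 to 19906601 per library.

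Counts were filtered with edgeR's filterByExpr (minimum count 10, minimum total 15), scaled by TMM and tested on all genes with edgeR's quasi-likelihood test (R 4.3.3, edgeR 4.0.16, limma 3.58.1), on the 12 libraries of 2 conditions or, for the interaction, on all 24. Benjamini-Hochberg adjustment ran over all genes tested; the threshold was 0.05, without a fold limit. Single genes were also tested with exact permutation tests and, over same-numbered pairs, with exact sign-change tests. Log2 CPM carry a prior count of 2. Levels between genes are CPM divided by the listed gene length. Alternatives were DESeq2 1.42.0, RLE and upper quartile factors, library totals, other filters, all libraries in a single fit, the replicate block, and replicates left out. The procedure was tested on simulated data.

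The series record describes 6 independent experiments with all conditions harvested in parallel; the labels number the libraries 1 to 6 without saying that a number marks an experiment. Across genes, same-numbered libraries deviated together from their condition means in 6 of 6 pairs of each comparison (correlations over 0.1; medians 0.344 for PGCC against parental, 0.272 with LCL521, 0.652 for LCL521 in parental and 0.532 in PGCC), and were therefore treated as pairs in the block. A library's own number was its best match in 5 of 6 libraries of each condition for PGCC against parental, 3 of 6 with LCL521, and 6 of 6 in both LCL521 comparisons. Libraries of a condition differed beyond counting error (chi-square per degree of freedom 5.05 to 120). The genes, the lists and the tests were chosen with earlier results of these data known. Genes named from further lists are the 2 largest rises and falls past the threshold, all 6 other family genes, any that passed with LCL521, and *ADAM17*, named after its value was seen; some genes under this rule and some markers are not reported here.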

Additional observations from a re-analysis of the deposited data

Results flagged for a closer look

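In PGCC with LCL521, replicate 2 had 4.39 CPM of *BTC*, while the other 5 libraries had 5.89 to 6.44 CPM; its distance from the nearest library, relative to the range of the group, exceeded Dixon's critical value for 6 samples. It was the only one of 36 groups of 6 libraries (9 genes in 4 conditions) to do so, and chance alone gives such a value in about 1 of 20 groups.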

How the results depend on the processing

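The counting depth limits *ERBB3*, *EREG* and *AREG* in parental cells (4 to 89 counts per library) and leaves *NRG1* untested under the main filter. Among values of single genes set against those under another setting, 694 kept their direction and side of the threshold, 33 passed it newly, 12 no longer passed and 50 turned in sign; 2 values without a test moved. All values that turned in sign were uncalled. With the replicate block 8 genes of the family passed between PGCC and parental cells in place of 4, and 8 in place of 5 with LCL521 (also 8 in each when replicates 4 and 5 were left out as well). With LCL521 and at least 10 counts in every library it was 3 in place of 5. That filter left *EREG* and *AREG* untested, at 6 counts in their lowest parental library with LCL521. Without drug it also left *EREG* untested, at 4 counts in its lowest parental library, so that gene had no call there either. The block raised the genes called for LCL521 from 0 to 115 in parental cells and from 1 to 234 in PGCC, of which 1 was of the family (0 without the block); without replicates 4 and 5 these were 3 and 129. DESeq2 called 6 genes for LCL521 in PGCC, and the fit of all 24 libraries and that without replicates 4 and 5 called 0. Leaving out each replicate in turn gave 3 to 6 genes of the family with LCL521 in both populations, and 0 to 1 genes for LCL521 in PGCC. The pairing by block changed no call of the family beyond those given with the results.

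Without a call in any setting, *ERBB3* in PGCC against parental turned to 0.00309 (DESeq2), 0.00386 (RLE) and 0.0909 (library totals), with -0.229 to 0.209 on leaving out each replicate; with LCL521 it turned to 0.0417 (library totals) and 0.0704 (block), with -0.235 to 0.12. For LCL521 in parental cells, leaving out replicates 4 and 5 gave 0.0174 for *AREG* and -0.0206 for *BTC* (-0.016 with the block); single replicates left out gave -0.0674 to 0.136 for *BTC*, -0.144 to 0.0158 for *EGFR* and -0.157 to 0.32 for *ERBB3*. For LCL521 in PGCC the values were 0.0178 and 0.0129 for *BTC*, with -0.0491 to 0.0203 for *BTC* and -0.0893 to 0.328 for *ERBB3* on leaving out each replicate. For the interaction, leaving out replicates 4 and 5 gave, without and with the block, -0.125 and -0.116 for *AREG*, -0.015 and -0.0247 for *HBEGF*, 0.0425 and 0.0398 for *BTC*, 0.0607 and 0.0593 for *EGFR* and 0.144 and 0.175 for *ERBB3*, and the block alone gave 0.0319 for *ERBB3* (0.0501 within each population). Single replicates left out gave -0.199 to 0.0577 for *BTC*, -0.0531 to 0.0276 for *EGFR*, -0.014 to 0.0718 for *ERBB2* and -0.256 to 0.335 for *ERBB3*. The cause of these shifts was not tested.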
